A study of Mus musculus with 54 samples.

Results

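Rad21 occupancy was mapped by chromatin immunoprecipitation and sequencing (ChIP-seq) in mouse neural progenitor cells (NPCs) whose CTCF was replaced either by the wild-type protein (WT) or by CTCF lacking zinc finger 1 (ΔZF1). The members are the Rad21 sites of 4 libraries, 2 of the CTCF-WT rescue and 2 of the CTCF-ZF1 mutant rescue. Overlapping peaks (at least 1 bp) of the 4 peak lists were merged, which gave 10846 sites out of 75882 merged sites over the 44 peak lists of the series. Each site was then classed by the libraries in which it was called. The main classes were sites called in both WT and neither ΔZF1 library (WT-only), in both ΔZF1 and neither WT library (ΔZF1-only), and in all 4.

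Both lines came from E14 mouse embryonic stem cells (ESCs) whose own Ctcf genes were both fused to an auxin degron and eGFP, with the plant receptor OsTir1(F74G) expressed from the Rosa26 locus and an mCherry reporter at Mnx1 (Hb9). A doxycycline-inducible Flag-Halo-tagged CTCF, WT or ΔZF1, sat at the Tigre locus. Cells of both groups were differentiated for 2 days. For 24 hours they received 1 µM 5-Ph-IAA to degrade the endogenous CTCF and doxycycline at 1 µg/ml to switch on the rescue transgene. The ESC libraries used below for comparison came from the same rescue lines, with the same 24 hours of treatment but without differentiation. The E14 NPC libraries came from the parental line after 2 days of differentiation. No 5-Ph-IAA or doxycycline treatment is recorded for them. The study's methods give 1 clone for the WT and 1 clone for the ΔZF1 rescue, so that genotype and clone cannot be told apart in any comparison here. The study describes the replicates as biological (N = 2 a group for Rad21 and Smc3, N = 4 for CTCF). Peak lists hold no expression values, so the NPC identity of the cells could not be checked against marker genes.

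Rad21 is the kleisin subunit that closes the cohesin ring, whose other core members are Smc1a and Smc3. Cohesin extrudes chromatin loops and halts where CTCF is bound, on the side of the CTCF motif that faces the protein's N terminus, so that Rad21 peaks in mammalian cells mostly lie on CTCF sites. ZF1 lies at the edge of the CTCF zinc finger array, outside the fingers that read the core motif, and is known as an RNA-binding finger. The core motif was searched here as CCANNAGNNGGC, on both strands and with up to 1 mismatch in the 8 fixed letters.

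The sequences below are the motifs of the 3 strongest sites of each class that held one within 50 bp of the summit, with the exclusions given in the methods. They are shown because the classes are compared by this motif later. Each is 60 bases of the GRCm38 (mm10) assembly read 5′ to 3′ on the strand of the motif, with the motif in capitals.
Myrip, WT-only, chr9:120434019-120434078, plus strand, exact motif: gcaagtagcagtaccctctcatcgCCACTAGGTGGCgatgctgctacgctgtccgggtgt
Hemk1, WT-only, chr9:107336075-107336134, minus strand, 1 mismatch: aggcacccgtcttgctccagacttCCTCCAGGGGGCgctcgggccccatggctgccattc
Adamts7, WT-only, chr9:90206646-90206705, plus strand, 1 mismatch: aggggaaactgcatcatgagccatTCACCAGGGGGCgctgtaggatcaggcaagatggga
Myl1, ΔZF1-only, chr1:66941131-66941190, minus strand, 1 mismatch: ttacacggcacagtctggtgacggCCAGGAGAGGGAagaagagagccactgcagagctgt
Fsip1, ΔZF1-only, chr2:118200040-118200099, plus strand, exact motif: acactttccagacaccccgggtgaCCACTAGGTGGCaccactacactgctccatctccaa
Tvp23b, ΔZF1-only, chr11:62901857-62901916, plus strand, 1 mismatch: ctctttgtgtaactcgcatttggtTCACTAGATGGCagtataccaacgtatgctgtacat
Pxylp1, all 4, chr9:96916823-96916882, plus strand, 1 mismatch: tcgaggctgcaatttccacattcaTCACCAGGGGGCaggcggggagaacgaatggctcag
Pigm, all 4, chr1:172412395-172412454, plus strand, exact motif: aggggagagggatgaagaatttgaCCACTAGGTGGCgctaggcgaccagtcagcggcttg
Npm1, all 4, chr11:33176721-33176780, plus strand, 1 mismatch: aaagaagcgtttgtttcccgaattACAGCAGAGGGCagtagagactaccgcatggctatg
The exact motifs of Myrip, Fsip1 and Pigm, 1 from each class, held the same 12 letters.

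The Rad21 peak lists held 4774 and 8144 peaks in the WT replicates and 5117 and 6080 in the ΔZF1 replicates. The fold enrichment and p-value of a peak together give the whole number of fragments at its summit. This held within 0.002 in −log10 p for 100% of the peaks of each library. The lowest background of a library, a measure of its relative depth, was 2.06 and 3.20 fragments per bp in WT replicates 1 and 2 and 2.07 and 3.12 in ΔZF1 replicates 1 and 2. Depth thus went with the replicate number and not with the genotype. The median summit held 30 and 41 fragments in WT and 29 and 36 in ΔZF1, and the weakest called summit held 11 fragments in both first replicates and 13 in both second ones. On the log2 scale the mean peak number differed by −0.16, ΔZF1 minus WT (exact permutation test, two-sided, p = 1, n = 2 against 2, where the smallest possible p is 0.333). Between libraries of the same number, the log2 difference was 0.10 for replicate 1 and −0.42 for replicate 2, so that the 2 pairs went opposite ways.

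Of the 10846 sites, 2423 were called in all 4 libraries, 572 were WT-only (5.27% of all sites) and 266 were ΔZF1-only (2.45%), while 4379 were called in a single library. Of the 4025 sites called in both WT libraries, 60.2% were called in both ΔZF1 libraries (95% Wilson interval 58.7% to 61.7%) and 85.8% in at least 1 of them (84.7% to 86.8%). Of the 3467 sites called in both ΔZF1 libraries, 69.9% were called in both WT libraries (68.3% to 71.4%) and 92.3% in at least 1 (91.4% to 93.2%). These intervals cover counting error only. Between replicates, 85.3% of the WT replicate 1 sites were called in WT replicate 2 and 49.5% the other way. Of the ΔZF1 replicate 1 sites, 68.3% were called in ΔZF1 replicate 2, and 57.4% the other way.

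The excess of WT-only over ΔZF1-only sites went with the lengths of the lists. When the top 4774 peaks by q-value were taken from each library, 401 of 8142 sites were WT-only (4.93%) and 371 were ΔZF1-only (4.56%). At equal numbers 359 of the 572 WT-only sites (62.8%) and 176 of the 266 ΔZF1-only sites (66.2%) were still in their class. The counts also depended on each single library. Without WT replicate 2, the longest list, 980 sites were WT-only and 958 ΔZF1-only, and without ΔZF1 replicate 1 the counts were 914 and 1333. Without WT replicate 1 they were 2785 and 352, and without ΔZF1 replicate 2 they were 1260 and 957.

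**Figure D1:**
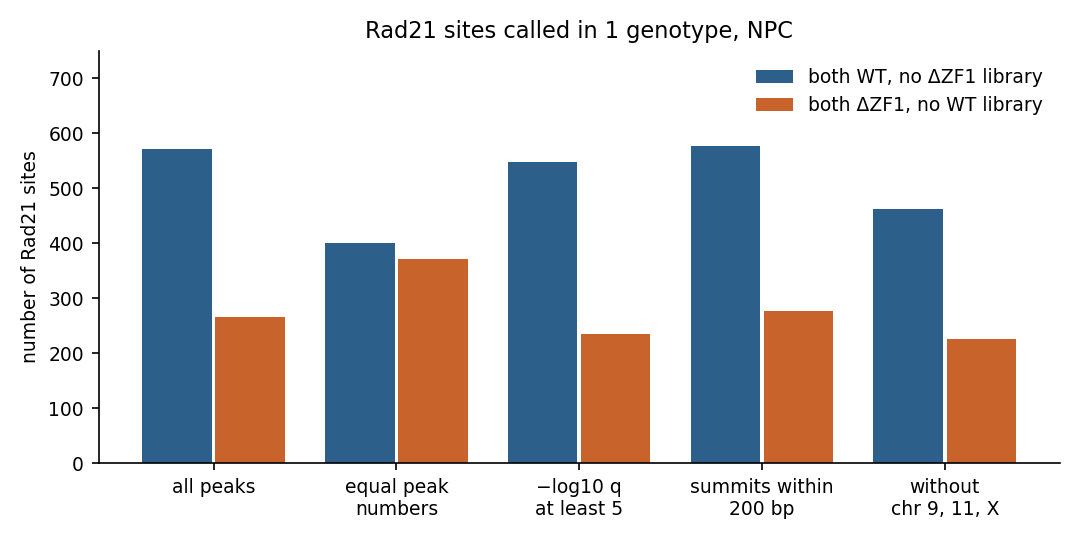
Bars give the number of Rad21 sites (vertical axis) called in both WT and no ΔZF1 library (blue) or in both ΔZF1 and no WT library (orange) for 5 choices of peaks (horizontal axis). The bars for all peaks stand at 572 and 266, and those at equal peak numbers at 401 and 371.

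Overlap between libraries of different genotypes was about as large as between replicates. The Jaccard index, the sites 2 libraries share over the sites either has, was 0.456 between the WT replicates and 0.453 between the ΔZF1 replicates. Between genotypes it ranged from 0.425 to 0.464, and the highest value of all 6 pairs was between WT replicate 2 and ΔZF1 replicate 2. The mean within genotypes exceeded the mean between them by 0.013 (one-sided exact permutation test, p = 0.333, the smallest possible with 2 against 2). At equal peak numbers this excess was 0.036, with 0.537 between the WT replicates and 0.482 between the ΔZF1 replicates against 0.438 to 0.510 between genotypes.

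Strong sites were kept more often than weak ones. The sites called in both WT libraries were divided into 4 equal bins by their mean percentile of fold enrichment within each list. The share called in both ΔZF1 libraries was 44.7% in the lowest bin (41.6% to 47.8%), 51.4% and 63.1% in the middle bins, and 81.6% in the highest (79.1% to 83.9%). In the other direction, 47.2% of the weakest and 93.1% of the strongest ΔZF1 sites were called in both WT libraries. Of the strongest WT bin, 31 of 1006 sites (3.08%) were called in neither ΔZF1 library, and of the strongest ΔZF1 bin, 7 of 866 (0.808%) in neither WT library. The switched sites were weaker than the sites called in all 4 libraries. WT-only sites held a median of 26 and 40 fragments in the WT libraries, and ΔZF1-only sites 24 and 30 in the ΔZF1 libraries. Within those lists the median percentile of fold enrichment was 38.7 and 51.8 for WT-only and 31.2 and 35.1 for ΔZF1-only sites. WT-only sites thus stood near the middle of the list of WT replicate 2. Sites called in all 4 libraries held a median of 35 and 57 fragments in WT and 36 and 46 in ΔZF1. A site without a call has no deposited value, so that a switched site can differ from its uncalled counterpart by as little as the calling threshold.

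**Figure D2:**
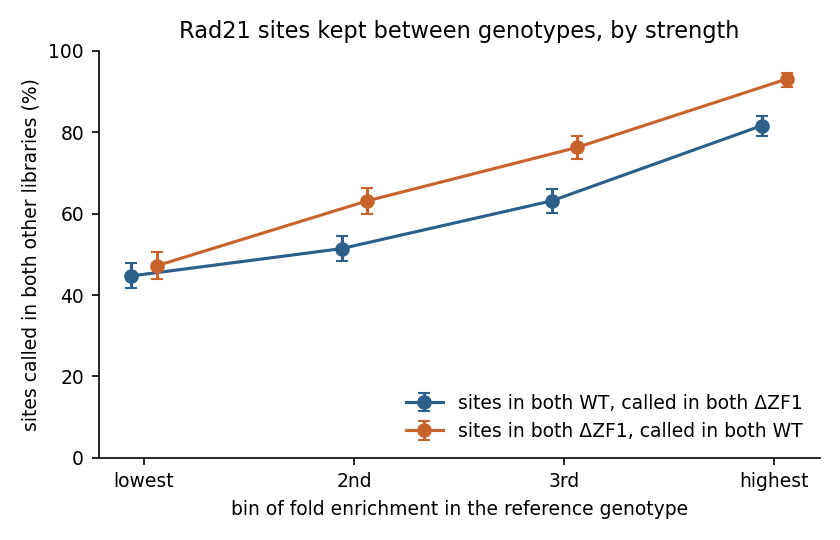
Points give the percentage of Rad21 sites of a reference genotype that were called in both libraries of the other (vertical axis) in 4 bins of fold enrichment from lowest to highest (horizontal axis), with 95% Wilson intervals. Both lines rise, from 44.7% to 81.6% for WT sites (blue) and from 47.2% to 93.1% for ΔZF1 sites (orange).

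At the 2423 sites called in all 4 libraries, no site passed a test of relative enrichment. Fold enrichment was ranked within each library, turned into normal scores and tested with limma. After Benjamini-Hochberg adjustment 0 sites passed 0.05 (0% of 2423, lowest adjusted p = 0.151), and 279 sites (11.5%) had an unadjusted p under 0.05, of which 141 were lower and 138 higher in ΔZF1. On quantile-normalized log2 fold enrichment limma also called 0 sites, with 272 at an unadjusted p under 0.05. Both scales give every library the same distribution of values. A change common to all sites could therefore not appear, and a near-even split into lower and higher sites was largely set in advance. Sites that lost their call in any library were not part of this test. In the alternatives, the lowest adjusted p ranged from 0.0022 to 0.283, and calls appeared in 2 of them: 11 sites without ΔZF1 replicate 1 and 3 without ΔZF1 replicate 2. In both of these the ΔZF1 group was a single library, which was assumed to vary like the WT libraries.

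Sites with the lowest and the highest moderated statistic are given as values, since none of them passed. The lowest was an intergenic site upstream of Gm12243 (chromosome 11, 57548967 to 57549311) with 62 and 78 fragments in WT and 24 and 40 in ΔZF1. A site near Gm13584 (chromosome 2, 38375969 to 38376301) held 67 and 78 fragments in WT and 30 and 38 in ΔZF1. A site beside the start of 4930545L08Rik (chromosome 9, 111918537 to 111918914) held 57 and 88 in WT and 25 and 39 in ΔZF1. Each of these 3 had more fragments in each WT library than in the ΔZF1 library of the same number. The highest was an intergenic site near Mmgt2, a magnesium transporter gene (chromosome 11, 62675810 to 62676145), with 42 and 64 fragments in WT and 76 and 112 in ΔZF1, a normal score difference of 2.25 (SE 0.42, limma, adjusted p = 0.151). An intergenic site near Grap, an adaptor of receptor signalling (chromosome 11, 61619721 to 61620601), held 31 and 56 fragments in WT and 65 and 81 in ΔZF1. Of these 5 sites, 4 lay on chromosomes 9 and 11.

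Sites switched between the genotypes were not spread evenly along the genome. Chromosome 9 held 66 WT-only and 10 ΔZF1-only sites among 741 (8.91% and 1.35%, against 5.27% and 2.45% of all sites), chromosome X held 17 and 1 among 162, and chromosome 11 held 26 and 30 among 771. On chromosome 9 the WT-only sites lay at its distal end. From 100 Mb to the end of the chromosome, 48 of 304 sites (15.8%) were WT-only and 1 was ΔZF1-only. Before 100 Mb, 18 of 437 (4.12%) were WT-only and 9 were ΔZF1-only. On chromosome 11 between 60 and 80 Mb, 3 of 201 sites were WT-only and 15 (7.46%) were ΔZF1-only, against 23 and 15 of 570 on the rest of that chromosome. These segments were chosen after their values were seen and are given without a test.

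The same segments differed from the rest in peak height at sites that both genotypes shared. Over all 2423 sites called in all 4 libraries, the median log2 ratio of summit fragments, ΔZF1 over WT, was 0 for replicate 1 and −0.30 for replicate 2, or −0.14 on their mean. At the 67 such sites on distal chromosome 9 it was −0.36 and −0.62, or −0.52 on the mean. At the 43 sites of chromosome 11 between 60 and 80 Mb it was 0.30 and −0.03, or 0.17 on the mean. Over 84 other bins of 20 Mb with at least 10 shared sites, the mean ratio stayed between −0.31 and 0.04. The background rates at the same summits had a median log2 ratio, ΔZF1 over WT, of −0.016 in both segments and over all sites. The labels name rescue inputs of the WT line alone, and which input served which library is not given in the sources used here. If both genotypes were called against the same input, the background could not show a difference in copy number between the clones.

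The segments were also looked up in other libraries of the 2 clones. Distal chromosome 9 held 3.81% and 3.36% of the Rad21 peaks in the WT NPC libraries and 1.86% and 1.96% in the ΔZF1 NPC libraries. In ESCs it held 3.59% and 2.85% of the WT Rad21 peaks and 2.07% and 1.62% of the ΔZF1 ones. Of the Smc3 peaks in NPCs it held 2.30% and 3.17% in WT, 1.58% and 1.68% in ΔZF1, and 1.64% and 1.69% in the parental E14 line. The Smc3 libraries of the WT clone thus lay above those of both ΔZF1 and E14, without overlap. The CTCF libraries in NPCs did not separate, with 1.49% to 1.61% in WT, 1.48% to 1.76% in ΔZF1 and 1.54% to 1.65% in E14. The chromosome 11 segment held 1.32% and 1.34% of the WT and 2.19% and 2.32% of the ΔZF1 Rad21 peaks in NPCs, and 1.55% and 1.41% against 4.75% and 3.41% in ESCs. Of the Smc3 peaks in NPCs it held 1.51% and 1.43% in WT, 1.84% and 1.91% in ΔZF1, and 1.57% and 1.68% in E14, which lay between the clones. Of the CTCF peaks it held 2.17% to 2.38% in WT, within the ΔZF1 range of 1.86% to 2.48%, and 1.69% in both E14 libraries. The number of chromosome copies in either clone was not measured here, and its part in these values was not tested. Without the 2 segments, 521 sites were WT-only and 250 ΔZF1-only. Without chromosomes 9, 11 and X, 463 were WT-only and 225 ΔZF1-only, and 60.3% of the WT sites were called in both ΔZF1 libraries.

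**Figure D3:**
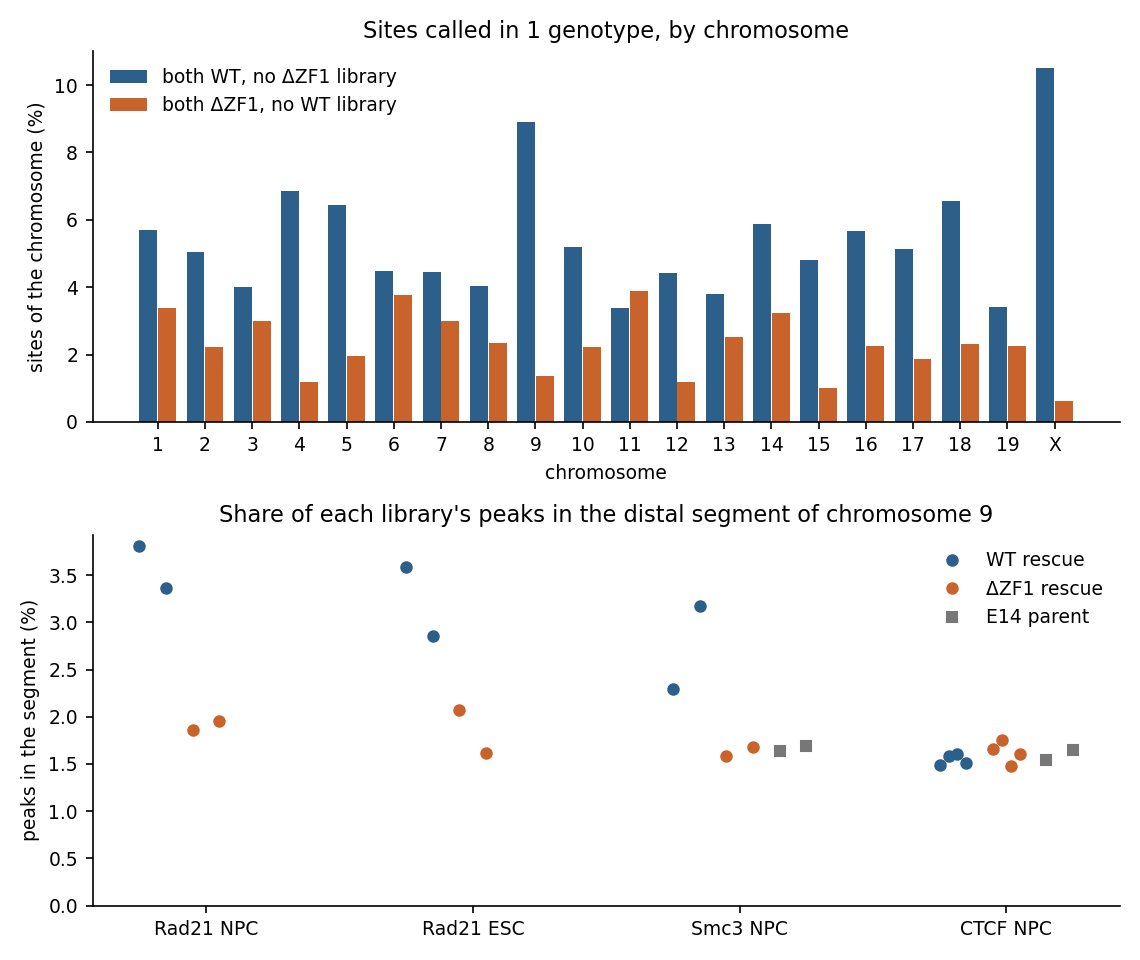
The upper panel gives, for each chromosome, the percentage of its Rad21 sites that were WT-only (blue) or ΔZF1-only (orange), and the lower panel the percentage of each library's peaks that lay on chromosome 9 from 100 Mb to the end, 1 point per library. Chromosomes 9 and X have the highest WT-only bars (8.91% and 10.5%), and the WT points of Rad21 and Smc3 (2.30% to 3.81%) lie above the ΔZF1 and E14 points, while the CTCF points lie together.

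The strongest WT-only sites included several on chromosome 9. The site in an intron of Myrip, which links vesicles to myosin motors (chromosome 9, 120433872 to 120434172), held 44 and 70 fragments at fold enrichments of 13.5 and 15.4 in the WT replicates and was called in neither ΔZF1 library. The site in an intron of the methyltransferase gene Hemk1 (chromosome 9, 107335814 to 107336238) held 43 and 82 fragments, and that in an intron of the metalloprotease gene Adamts7 (chromosome 9, 90206566 to 90206865) held 36 and 63. The site upstream of Camp, which encodes the antimicrobial peptide cathelicidin (chromosome 9, 109862399 to 109862891), held 46 and 72. Of these 4, only the Adamts7 site lay outside the distal segment of chromosome 9, and the motif was exact at Myrip and Camp.

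The other leading WT-only sites lay elsewhere. An intron of Chrna2, a nicotinic acetylcholine receptor subunit gene (chromosome 14, 66147639 to 66147864), held 39 and 54 fragments. A distal site upstream of Acsl4, an acyl-CoA synthetase gene on chromosome X (142529981 to 142530185), held 32 and 54. A site upstream of the RNA-binding protein gene Hnrnpa3 (chromosome 2, 75605752 to 75606028) held 28 and 73. The remaining 3 lay in or near the unnamed loci Gm2990, Gm38139 and Gm9195, with 33 to 38 fragments in WT replicate 1 and 48 to 59 in replicate 2. All 10 held a motif within 50 bp. All 10 also stayed WT-only at equal peak numbers, but that cut can only remove calls and these sites were picked as strong. A Smc3 peak was called at all 10 in both ΔZF1 Smc3 libraries, where 92.7% and 92.5% of all WT-only sites had one. A CTCF peak was called at all 10 in both E14 libraries, as at 86.2% of all WT-only sites. Of the 4 ΔZF1 CTCF libraries, from 0 (Acsl4, Gm2990) to 4 (Hnrnpa3) had a peak at these sites. Of the 4 WT CTCF libraries, 1 to 4 had one.

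The strongest ΔZF1-only sites were weaker. The site in an intron of the muscle myosin light chain gene Myl1 (chromosome 1, 66941037 to 66941242) held 31 and 35 fragments. A site upstream of the acyltransferase gene Agpat5 (chromosome 8, 18817773 to 18818104) held 43 and 41, and one in an intron of the sperm protein gene Fsip1 (chromosome 2, 118199957 to 118200212) held 29 and 35.

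An intron of the Golgi protein gene Tvp23b (chromosome 11, 62901804 to 62902159) held 30 and 42 fragments and lay within the chromosome 11 segment. An intron of Tcf4, a helix-loop-helix transcription factor gene (chromosome 18, 69507834 to 69508074), held 25 and 34. A site downstream of the start of C1d, an exosome cofactor gene (chromosome 11, 17279977 to 17280187), held 42 and 26, so that the 2 replicates ranked it differently. A further 3 lay near Gm48825, Gm14266 and 4930441H08Rik, with 27 to 29 and 29 to 40 fragments. All of the 10 leading ΔZF1-only sites stayed in their class at equal peak numbers, a cut that likewise can only remove calls. A Smc3 peak was called in both ΔZF1 Smc3 libraries at 9 of the 10, and in both WT Smc3 libraries at 8. Among all ΔZF1-only sites, 91.0% and 90.2% had one in the ΔZF1 and 89.1% and 69.5% in the WT Smc3 libraries.

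The 5 strongest sites called in all 4 libraries were mostly not CTCF sites. A pair lay in an intron of Tex21, a testis-expressed gene (chromosome 12, 76232730 to 76235917 and 76231918 to 76232539). The first held 129 and 246 fragments in WT and 147 and 197 in ΔZF1. One near Tmem167b, which encodes a membrane protein (chromosome 3, 108552799 to 108554905) held 169 and 342 in WT and 221 and 278 in ΔZF1, and 7 of the 8 CTCF rescue libraries had a peak there. The others lay in an intron of the parathymosin gene Ptms (chromosome 6, 124914612 to 124916620) and in a UTR of the mRNA-binding protein gene Serbp1 (chromosome 6, 67291731 to 67294267). No CTCF peak was called at the Tex21 pair, Ptms or Serbp1 in any of 10 rescue and E14 NPC libraries, and all 5 sites had a Rad21 peak in all 4 ESC libraries. Smc3 was not called at all of them. The first Tex21 site had a Smc3 peak in 0 WT and 1 ΔZF1 library, and the second in none. Serbp1 had one in 1 library of each genotype, Tmem167b in 1 WT and 2 ΔZF1 libraries, and Ptms in 2 of each. In E14, Smc3 was called at Tmem167b alone. In all 3 classes CTCF-free sites were a minority, with 181 of 2423 all-4 sites (7.47%), 57 of 572 WT-only (9.97%) and 42 of 266 ΔZF1-only sites (15.8%) lacking a peak in all 8 rescue CTCF libraries.

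The core motif was more frequent at WT-only than at ΔZF1-only sites. It lay within 50 bp of the summit at 85.3% of WT-only sites (488 of 572, interval 82.2% to 88.0%), 79.1% of all-4 sites (77.4% to 80.6%) and 66.9% of ΔZF1-only sites (178 of 266, 61.1% to 72.3%). Among all Rad21 sites it lay there at 76.4%, and windows of the same size 1000 bp away held it in 9.99% of cases. The exact motif lay at 49.1%, 38.4% and 31.6% of the 3 classes, against 1.11% in the shifted windows. The share was higher at WT-only than at ΔZF1-only sites under each alternative run, which did not include the all-4 sites. At equal peak numbers the motif lay at 90.0% of WT-only sites (86.7% to 92.6%) and 75.2% of ΔZF1-only sites (70.6% to 79.3%), and without chromosomes 9, 11 and X at 86.0% and 67.6%. With each of the 4 libraries left out in turn it was also higher at WT-only sites, at 76.4% to 86.1% against 64.1% to 72.7%. Over whole libraries the motif lay under 80.7% and 79.0% of the WT peaks and 76.8% and 75.5% of the ΔZF1 peaks, without overlap (exact permutation test, two-sided, p = 0.333, the smallest possible, adjusted p = 0.4 over 6 features).

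The position of the sites was compared next. Within 1 kb of a transcription start site (TSS) lay 6.12% of WT-only sites (4.43% to 8.39%) and 13.2% of ΔZF1-only sites (9.62% to 17.7%). The share was 12.5% of all-4 and 11.3% of all Rad21 sites. Promoter sites without the motif made up 1.92% of WT-only, 8.65% of ΔZF1-only, 4.13% of all-4 and 4.80% of all sites. Coding exons held 1.92% of WT-only, 6.02% of ΔZF1-only, 2.27% of all-4 and 2.87% of all sites. The ΔZF1-only ones included mitochondrial sites in mt-Co1 and mt-Nd5, with fold enrichments of only 1.34 to 1.63. Introns held 43.2% of WT-only, 47.4% of ΔZF1-only and 42.1% of all Rad21 sites, and intergenic positions 51.0%, 40.6% and 49.8%, so that the WT-only values were near those of all sites. By library, 11.2% and 9.98% of the WT peaks and 11.4% and 13.7% of the ΔZF1 peaks lay within 1 kb of a TSS, a difference of 1.96 points between the means (exact permutation p = 0.333, the smallest possible, n = 2). Chromosome X held 1.51% and 1.66% of WT peaks and 0.704% and 0.872% of ΔZF1 peaks (exact permutation p = 0.333, the smallest possible).

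CTCF calls at Rad21 sites averaged lower in the ΔZF1 than in the WT CTCF libraries in all 3 classes, with overlapping groups. At the 572 WT-only sites, a CTCF peak was called at 75.5%, 65.7%, 76.7% and 33.2% in the WT CTCF replicates 1 to 4 and at 21.9%, 43.0%, 25.0% and 53.3% in the ΔZF1 ones. Replicate 4 of WT lay among the ΔZF1 values. At the 266 ΔZF1-only sites the shares were 73.3%, 59.0%, 67.3% and 40.6% in WT and 32.0%, 33.8%, 19.5% and 54.1% in ΔZF1. At the all-4 sites they ranged from 55.6% to 85.8% in WT and from 37.2% to 70.4% in ΔZF1.

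The mean share at WT-only sites was 62.8% ± 20.3 in WT and 35.8% ± 14.9 in ΔZF1 (SD, n = 4), which did not pass the test (exact permutation test, two-sided, p = 0.0857, adjusted p = 0.129 over 3 values). At ΔZF1-only sites it was 60.1% ± 14.2 in WT and 34.9% ± 14.3 in ΔZF1 (exact permutation p = 0.0571, adjusted p = 0.129, n = 4). The difference between the 2 classes within a library, WT-only minus ΔZF1-only, averaged 2.75 percentage points in WT and 0.93 in ΔZF1 (exact permutation p = 0.714, n = 4). The CTCF lists held 15052 to 30555 peaks in WT and 5755 to 33452 in ΔZF1. With every list cut to its top 5755 peaks, the WT-only share differed by −0.96 points between the genotypes, which did not pass the test. The ΔZF1-only share then differed by −2.35 points (exact permutation p = 0.0286, the smallest possible, n = 4). This p was not adjusted over the 3 values, unlike those above, so that it cannot be set against them as a pass. Over whole Rad21 libraries, a CTCF peak found in at least 3 of 4 libraries of the same genotype lay under 66.7% and 58.5% of WT and 31.0% and 31.9% of ΔZF1 Rad21 peaks. There were 16318 such CTCF sites in WT and 6280 in ΔZF1.

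Smc3 was called at most Rad21 sites of every class, from lists of 13710 to 34104 peaks that were longer than any Rad21 list. At WT-only sites a Smc3 peak was called at 94.4% and 79.7% in the WT and at 92.7% and 92.5% in the ΔZF1 Smc3 libraries. At ΔZF1-only sites the shares were 89.1% and 69.5% in WT and 91.0% and 90.2% in ΔZF1, and at all-4 sites 90.4% to 93.7% in the 4 libraries. Only 2 of the 572 WT-only Rad21 sites had Smc3 in both WT and in neither ΔZF1 library, while 448 (78.3%) had it in all 4. Of the 266 ΔZF1-only sites, 4 had Smc3 in both ΔZF1 and neither WT library, and 182 (68.4%) had it in all 4. The within-library difference between the classes, WT-only minus ΔZF1-only, was 7.74 points in WT and 1.97 in ΔZF1 (exact permutation p = 0.333, the smallest possible with n = 2, adjusted p = 0.5). With Smc3 lists of equal length, the Smc3 share at WT-only sites differed by −3.41 points, ΔZF1 minus WT (exact permutation p = 0.667, n = 2). The groups overlapped there, with 87.4% and 79.7% in WT and 80.8% and 79.5% in ΔZF1. At ΔZF1-only sites the share differed by 5.83 points (exact permutation p = 0.333, the smallest possible, n = 2). The class difference then moved by −9.24 points from WT to ΔZF1 (exact permutation p = 0.333, the smallest possible, n = 2).

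**Figure D4:**
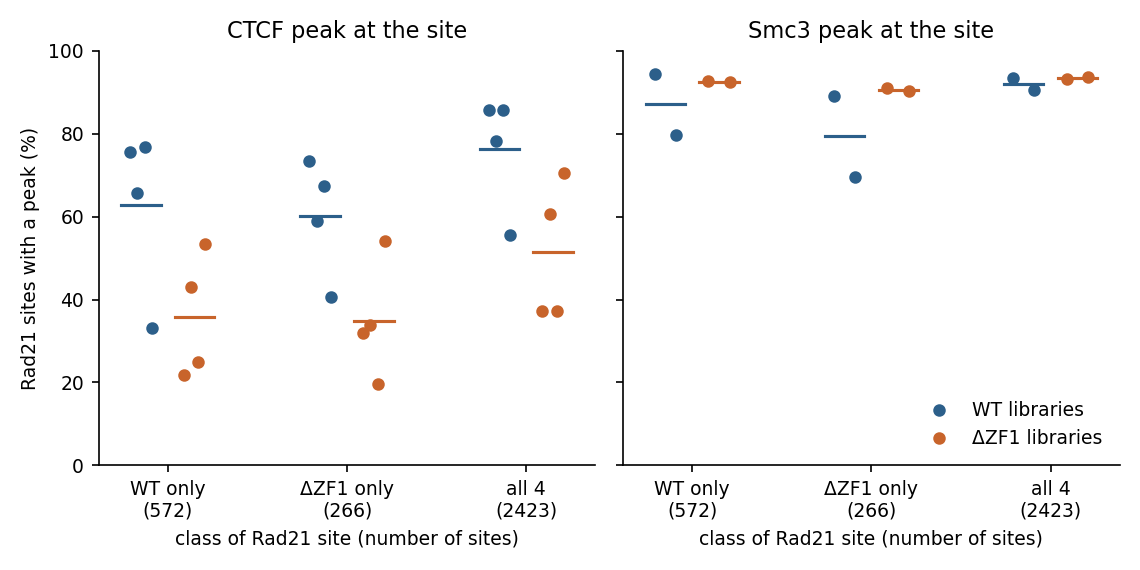
Each point is 1 NPC library, with the percentage of Rad21 sites of a class that hold a CTCF peak (left) or a Smc3 peak (right) on the vertical axis and the class on the horizontal axis, and lines mark group means. The ΔZF1 CTCF means lie lower in all 3 classes (35.8% against 62.8% at WT-only sites), whereas the ΔZF1 Smc3 points lie between 90.2% and 93.7% in every class.

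Rad21 summits lay to the 3′ side of the motif in both genotypes. At 968 all-4 sites with an exact motif within 150 bp, the median summit lay 16.5 and 16.5 bp to the 3′ side of the motif centre in the WT replicates and 15.5 and 14.5 bp in the ΔZF1 replicates. The ΔZF1 values were lower by 1.5 bp on average (exact permutation p = 0.333, the smallest possible, n = 2). The summit lay on the 3′ side at 81.8% and 85.9% of sites in WT and in ΔZF1 at 769 of 961 sites in replicate 1 and 777 of 957 (81.2%) in replicate 2. The median Smc3 summit at the same sites lay 7.5 and 6.5 bp to the 3′ side in WT and 6.5 and 5.5 bp in ΔZF1. The median CTCF summit lay within 4.5 bp of the motif centre in each of the 8 libraries. These medians averaged −1.5 ± 2.16 bp in WT and 0 ± 3.32 bp in ΔZF1 (SD, exact permutation p = 0.514, n = 4). Single CTCF summits spread more widely, with quartiles at −17.5 and 16.5 bp in WT replicate 1. At switched sites the median was 14.5 and 15.5 bp at WT-only sites in the WT libraries and 15.5 and 7.5 bp at ΔZF1-only sites in the ΔZF1 libraries, over 89 to 287 summits.

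**Figure D5:**
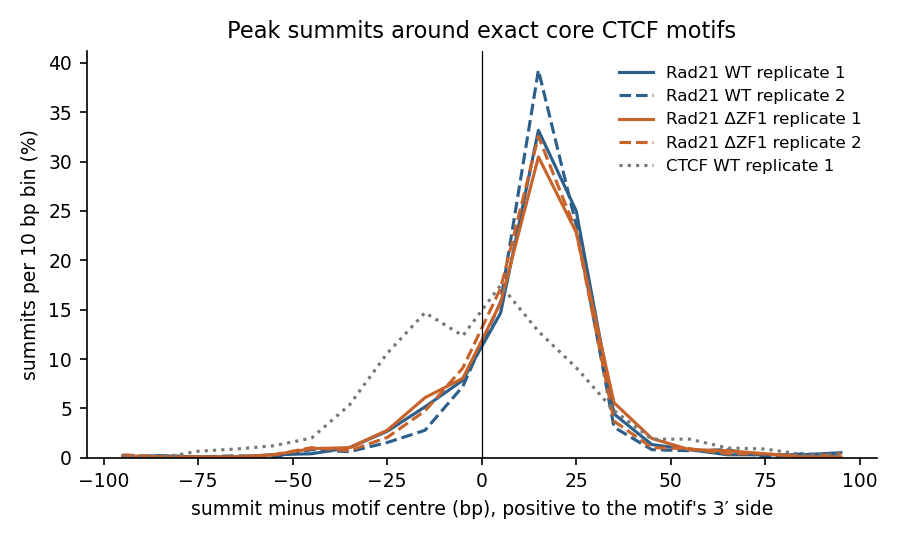
Lines give the percentage of summits per 10 bp bin (vertical axis) by distance from the centre of an exact core CTCF motif (horizontal axis), at Rad21 sites called in all 4 libraries. The 4 Rad21 lines share a peak to the motif's 3′ side, with medians of 14.5 to 16.5 bp, while the CTCF line of WT replicate 1 has its median at 0.5 bp.

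The same sites were looked up in ESCs and in the parental line. At WT-only sites a Rad21 peak was called in ESCs at 26.4% and 74.8% in the WT and at 5.94% and 12.1% in the ΔZF1 libraries. At ΔZF1-only sites the shares were 13.2% and 51.1% in WT and 6.02% and 10.9% in ΔZF1, so that sites called only with ΔZF1 in NPCs were also called more often in the WT ESC libraries. These lists differed in length, with 3539 and 10415 peaks in WT and 1306 and 2347 in ΔZF1 ESCs. Of the 572 WT-only sites, 94 (16.4%) were called in both WT and neither ΔZF1 ESC library, against 427 of 2423 all-4 sites (17.6%) and 17 of 266 ΔZF1-only sites (6.39%). In E14 NPCs, with endogenous CTCF, a CTCF peak lay in both libraries at 86.2% of WT-only, 69.9% of ΔZF1-only and 89.5% of all-4 sites. Smc3 peaks lay in both E14 libraries at 61.5%, 52.3% and 82.4%.

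Few genes of the listed groups held a switched site. In the window from 1 kb upstream of the start to the end of the gene, 5000 annotated genes held a Rad21 site, of which 316 held a WT-only site (6.32%), 196 a ΔZF1-only site (3.92%) and 1308 an all-4 site (26.2%). Of 6 pluripotency genes with a Rad21 site, 2 held an all-4 site and none a switched one. The same was true of 3 of 14 neuron genes, 1 of 4 mesoderm and endoderm genes, 7 of 8 Hox genes and 18 of 34 clustered protocadherin genes, many of which share the same sites. Among 9 neural progenitor genes, 2 held a ΔZF1-only site. In Zic2, a zinc finger transcription factor gene, an intronic site held 18 and 26 fragments in ΔZF1 and left its class at equal peak numbers. In Nkx2-2, a ventral neural tube homeobox gene, a coding exon site held 35 and 37.

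Of 24 imprinted genes with a Rad21 site, 13 held an all-4 site and 1 each a WT-only and a ΔZF1-only site. The WT-only site lay in an intron of the deubiquitinase gene Usp29 (chromosome 7, 6937143 to 6937408) and held 20 and 33 fragments. Among 6 genes of the CTCF and cohesin machinery, 2 held an all-4 site, and Adnp, a partner of chromatin remodellers, held a ΔZF1-only intronic site with 25 and 29 fragments. Among 10 ribosomal protein genes, 5 held an all-4 site.

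Of the study's loci and the engineered loci, Podxl, Grb10 and Gt(ROSA)26Sor held a Rad21 site, and Ctcf, Mnx1 and Dlx3 held none. In Podxl, the gene of the sialomucin podocalyxin, an intronic site with an exact motif (chromosome 6, 31525592 to 31525777) was ΔZF1-only, with 38 and 45 fragments. Its background was high, at 6.59 and 10.2 fragments per bp, so that fold enrichment was 5.14 and 4.09 and its mean rank stood at the 17.2 percentile of the lists. Smc3 was called there in 2 of 2 WT and 2 of 2 ΔZF1 libraries, and the site stayed ΔZF1-only at equal peak numbers. In Grb10, an imprinted growth factor receptor adaptor gene, 1 intronic site (chromosome 11, 11973429 to 11973709) was called in all 4 libraries, with 38 and 64 fragments in WT and 41 and 70 in ΔZF1. Another intronic site (11974982 to 11975194) was ΔZF1-only with 32 and 30 fragments. A further one (12025769 to 12025954) was called in both second replicates, with 68 fragments in WT and 53 in ΔZF1, and in neither first replicate. The Gt(ROSA)26Sor site was called in ΔZF1 replicate 2 alone, with 36 fragments.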

How the data were processed

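Per the labels and the study's methods, the authors aligned reads to mm10 with Bowtie2, removed alignments of mapping quality under 30, duplicates and blacklisted regions, and called peaks per sample with MACS2 at q 0.01. Versions, and which input served which sample, are not given in the sources used here. The deposited columns hold the fold enrichment (a ratio to local background), the −log10 p-value and −log10 q-value, a display score and the summit. The study's count test needs reads and was not repeated. Wilson intervals (95%) and fragment numbers cover counting error only. Genes came from GENCODE M21 on GRCm38. For the sequences shown, windows touching a UTR or on chromosome 18 were passed over.

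The members and gene lists were chosen with earlier results of these data known. Named were the 10 WT-only, 10 ΔZF1-only and 5 all-4 sites highest in mean percentile of fold enrichment, the 3 lowest and 3 highest sites by limma, switched sites of listed genes, and the study's loci. A few sites that this rule names are not reported here. Peak numbers, shares and summit offsets were tested by exact permutation of libraries (2 against 2 cannot go below 0.333, 4 against 4 not below 0.0286), and relative enrichment with limma 3.58.1 (R 4.3.3). On simulated data for that comparison over 2423 sites, 58 of 100 sites shifted by 3 SD and 99 of 100 shifted by 6 SD were recovered. Every simulated site had the same SD, whereas the spread of real sites can differ, so that recovery in the real data may be lower. Alternatives were equal peak numbers, a −log10 q of at least 5, summits within 200 bp, each library left out, other scales and windows, and the replicate number as a block. Leaving out chromosomes or segments, and the motif shares under alternatives, were added after seeing the data.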

Additional observations from a re-analysis of the deposited data

How the results depend on the processing

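With 2 libraries a group, depth and list length limited every count. Equal peak numbers moved the retained share of WT sites to 64.0% and the motif shares to 90.0% (WT-only) and 75.2% (ΔZF1-only), and counting 1 of 2 ΔZF1 libraries moved the retained share to 85.8%. Leaving out 1 library in turn gave 914 to 2785 WT-only sites, 352 to 1333 ΔZF1-only sites, a retained share of 38.3% to 77.3%, motif shares of 76.4% to 86.1% (WT-only) and 64.1% to 72.7% (ΔZF1-only), 0 to 11 limma calls, a log2 difference in peak number of −0.55 to 0.22, which changes sign, and a difference in median peak width of −19.5 to 27.5 bp, which also changes sign. At equal peak numbers that width difference was −4 bp against 4 bp. With CTCF and Smc3 lists of equal length, the CTCF difference at ΔZF1-only sites was −2.35 points (exact permutation p = 0.0286, not adjusted, n = 4). The class difference within CTCF libraries then turned to 1.39 points and the Smc3 difference at WT-only sites to −3.41. Leaving out CTCF or Smc3 libraries, the class difference within CTCF libraries ranged from −5.20 to 1.85 points and the Smc3 difference at WT-only sites from −1.84 to 12.8. From 10 kb upstream, 4 listed genes held a WT-only site against 2. The causes of these changes were not tested, beyond the fewer peaks or libraries used. Of 212 alternatives, 181 kept their direction and side of the threshold, or for counts and shares stayed near the value given, all 46 of named sites among them. Most of those 46 shortened the lists at the leading switched sites. These sites were picked as strong and could gain no call in the other genotype, so their stability was largely set in advance.

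In relative enrichment at the 2423 sites that every library called, same-numbered Rad21 libraries did not deviate together (r = −0.035). Ranks within a library hold no depth and these sites no missing call, so this r cannot show that the numbers are unrelated. CTCF calls gave r = −0.043 to 0.092 and Smc3 calls 0.070. Rad21 calls and depth did go with the replicate number. Both second replicates and neither first called 691 sites, against 71 the other way and 572 WT-only sites. The numbers were not taken as pairs in the main tests. With the replicate number as a block, limma called 0 sites (lowest adjusted p = 0.283), the log2 difference in peak number was −0.16, and no other call changed.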
